A study of Mus musculus with 13 samples.

Results

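The genes described here are 40 mouse genes of glycolysis and of the response to low oxygen, taken by name from a written list of the pathway. They are 4 transporters of glucose and lactate, 17 glycolytic enzymes, 3 enzymes that control the flux through the pathway, 7 genes of oxygen sensing and 9 other targets of hypoxia. All 40 are among the 24984 genes listed for endothelial cells (ECs) sorted from tumors and among the 24421 listed for ECs sorted from vascular sprouts. In tumor ECs 38 of the 40 passed the filter on low counts and in sprout ECs all 40 did. Aldoc and Hif3a, which did not pass in tumor ECs, reached at most 6.16 and 3.57 CPM (counts scaled to the TMM-normalized library size) there.

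The study asked what the peptide Apelin, encoded by Apln, does in growing blood vessels. Tumor ECs were sorted as CD31+/CD105+ cells, 100 cells per library, from E0771 mammary carcinomas grown in C57BL6/J mice and taken at day 25, and were sequenced by Smart-Seq2. By the paper's methods, CD45+ cells and cells stained by DAPI were sorted out. The KO group has 3 libraries from Apln-/- mice that carried E0771 cells with a hairpin against Apln (shApln), and the WT group has 6 libraries from wild-type mice that carried shRenilla cells, so that loss in the host and knockdown in the carcinoma cells cannot be told apart. Sprout ECs were sorted as CD31+ cells from embryoid bodies (EBs) of female mouse embryonic stem cells on a C57BL/6x129 background. EBs were moved into collagen I gel on day 8 and given VEGFA164 at 30 ng/ml. The 2 libraries labelled STOP carry a splice acceptor in sense orientation in Apln and were given DMSO. The 2 libraries labelled GO come from sister cells in which Cre, delivered with mCherry by a retrovirus, turned the trap to antisense, and were given Apelin (Pyr13) at 1000 nM. Both treatments were taken from the study's figure legends. The sample records give Apelin at 1000 nM in the protocol of STOP and GO alike. Genotype, the Cre virus and, by the legends, added peptide differ together between STOP and GO and cannot be told apart. All 4 libraries derive from gene-trapped sister lines.

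Glycolysis turns glucose into pyruvate in the cytosol, and lactate dehydrogenase turns pyruvate into lactate, which leaves the cell through monocarboxylate transporters. Growing ECs draw much of their ATP from glycolysis, and the hexokinase and phosphofructokinase steps are the main points of control. In low oxygen the hydroxylases encoded by Egln1 and Egln3 no longer mark the HIF α subunits for the ubiquitin ligase subunit VHL, and HIF α with ARNT then raises the transcription of glucose transporters, glycolytic enzymes and a wider group of targets.

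Total counts ran from 4661044 to 14455093 in tumor EC libraries and from 12327030 to 16804071 in sprout EC libraries, so that 3 counts correspond to at most 0.596 and 0.244 CPM. Apln stood at 12.1, 8.51 and 2.44 CPM in the KO libraries and between 416 and 1032 CPM in WT. In the sprout set it stood at 66.1 and 80.2 CPM in the libraries labelled STOP and at 58.2 and 65.9 CPM in those labelled GO, so the counts do not check the STOP and GO labels. The paper reports disrupted Apln mRNA in STOP stem cells and delayed sprouting of STOP EBs under VEGF. It also reports angiogenesis as the top category among genes lower in STOP ECs. Endothelial markers (12 genes) summed to 8815 to 14496 CPM in tumor ECs. In sprout ECs the same 12 genes summed to 631 and 874 CPM in STOP and to 2566 and 2473 CPM in GO, and all 12 were lower in STOP by edgeR's test. A list of 8 pluripotency markers, which includes Pou5f1 and Nanog, summed to 5553 and 5419 CPM in STOP and to 2077 and 3497 CPM in GO, with 8 of 8 genes higher in both STOP libraries and 1 passing the adjusted test. Fibroblast and mural markers (8 genes) summed to 2548 CPM in STOP 2 and 2727 CPM in GO 1 and to 440.1 and 597 CPM in STOP 1 and GO 2, which crosses the groups. Other lists also lay apart between the groups. Epithelial markers (7 genes) summed to 968 and 758 CPM in STOP and to 638 and 580.5 CPM in GO, with Cdh1 called higher in STOP. Cdh1 and Epcam, both higher in STOP, made up most of these sums. The other 4 of the 6 epithelial genes tested had a fitted difference below 0, and the median log2 fold change was -0.33. Endoderm markers (4 genes) summed to 11.5 and 20.8 CPM in STOP and to 65.1 and 57.4 CPM in GO, with Sox17 and Afp called lower. Sox17 made up most of these sums, at 8.94 and 16.9 CPM in STOP and at 51.9 and 49.6 CPM in GO. It also stood at 99.4 to 246 CPM in tumor ECs, so it does not mark endoderm alone here. Neural markers (4 genes) summed to 209 and 282 CPM in STOP and to 419 and 331 CPM in GO, although Tubb3, the one called, was higher in STOP. The lower neural sums in STOP came mainly from Nes, at 82.0 and 152 CPM against 367 and 260 CPM in GO. Nes likewise stood at 138 to 527 CPM in tumor ECs. The falls of Sox17 and Nes cannot be told apart from that of the endothelial markers. Red cell and neutrophil lists also lay lower in STOP, at no more than 4.90 CPM in any library. Every difference in the members below runs beside these shifts, whose part in the results was not tested. In bulk libraries fewer cells of a type and less RNA per cell cannot be told apart.

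**Figure D1:**
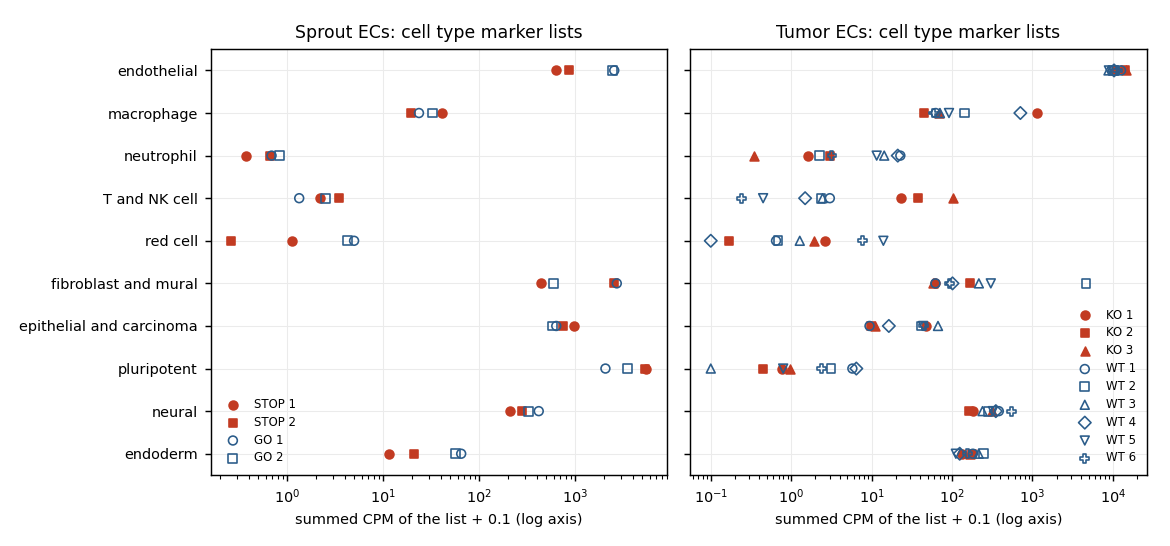
Summed CPM (plus 0.1, log axis) of 10 lists of cell type markers in each library; filled red symbols are STOP and KO, open blue symbols GO and WT. In sprout ECs the endothelial list lies lower and the pluripotent list higher in both STOP libraries. In tumor ECs KO 1 (1144 CPM) and WT 4 (708 CPM) stand above the other 7 libraries in the macrophage list. The T and NK cell list lies higher in all 3 KO libraries, in KO 1 and KO 2 almost only through Cd2.

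In sprout ECs few members passed the adjusted test between the libraries labelled STOP and GO. By edgeR's quasi-likelihood test at an adjusted p under 0.05, 4 of the 40 members rose in STOP (Pgk1, Ndrg1, Ankrd37 and Ddit4), beside 1.92% of the 14557 genes tested, and 1 fell (Epas1), beside 4.3%. The study's added threshold, an absolute log2 fold change over 1, left Epas1 among the lower genes, where 3.03% of all genes passed, and no member among the higher ones, where 0.852% passed. At an unadjusted p under 0.05, 17 members were higher (12.4% of all genes) and 5 lower (14.3%). Both STOP libraries exceeded both GO libraries in 23 members (31% of all genes) and lay under both in 7 (29.6%). In TPM, the deposited values scaled by transcript length and not by TMM, these counts were 18 higher (18.9% of all genes) and 10 lower (41.8%). The fitted difference was above 0 for 28 of the 40, beside 50.5% of all genes, and its median was 0.26 on the log2 scale, beside 0.01 for all genes. These counts are not independent of each other, since all members were read in the same 4 libraries.

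The number of calls differed between tools, with a replicate block and when a library was left out. DESeq2, the study's tool, called 11 members higher and 2 lower, out of 38 that it gave an adjusted p (5.44% and 8.5% of the 12581 genes it gave one). Its added calls were Slc2a1, Slc2a3, Hk2, Aldoa, Ldha, Ldhb and Slc16a1 among the higher members and Hif3a among the lower. With edgeR and 1 library left out, which leaves a single library in its group and takes the spread from the pair in the other, no member was called lower and 1 higher without STOP 1, 1 lower and 2 higher without STOP 2, 1 lower and none higher without GO 1, and 3 lower and 8 higher without GO 2. The calls over all genes moved with them, from 6.22% in the fit of all 4 libraries to 0.994%, 5.10%, 1.23% and 9.47% in the same order. The sign of the difference was above 0 in 28 or 29 of the 40 members in each of those fits. With the replicate numbers as a block, edgeR called no member in either direction and 0.302% of all genes. Whether those numbers pair the libraries could not be decided, as set out in the last section.

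**Figure D2:**
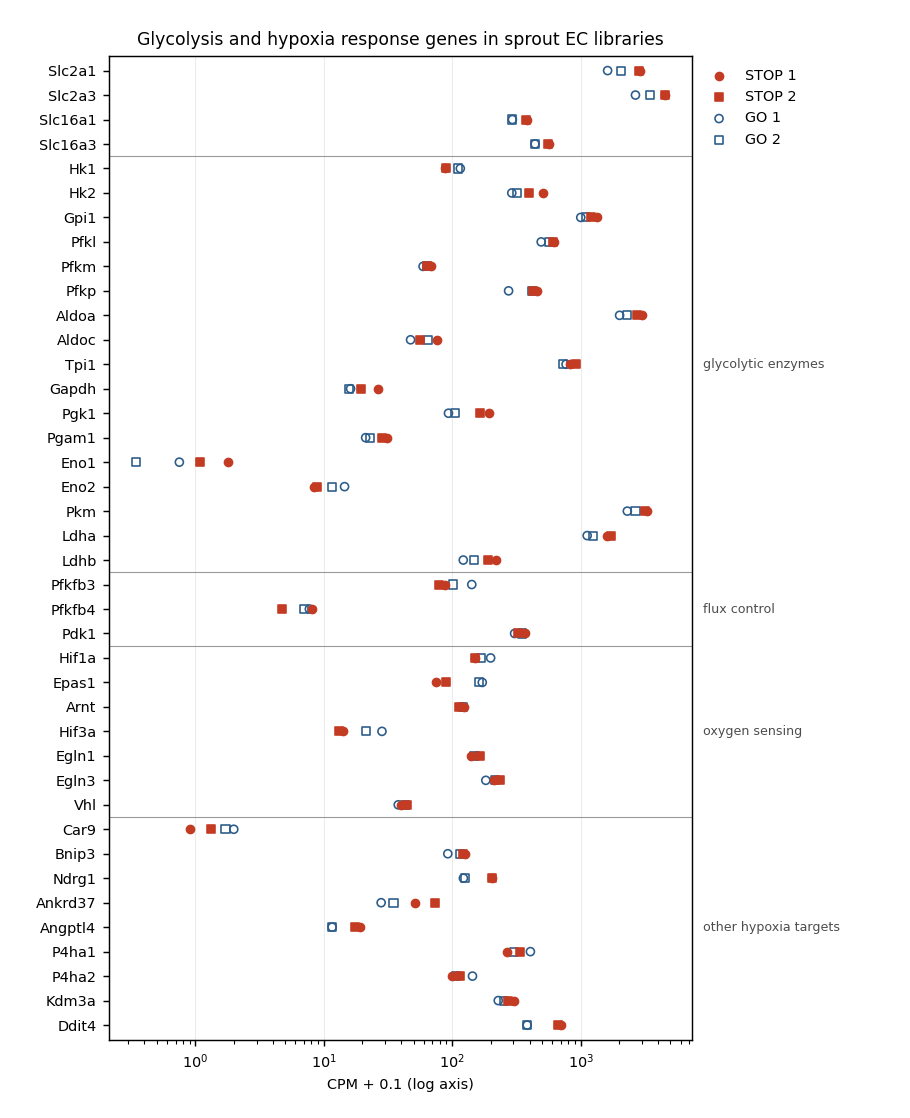
CPM (plus 0.1, log axis) of the 40 members in the 4 sprout EC libraries, grouped by role; filled red symbols are STOP and open blue symbols GO. The 4 transporters and 13 of the 17 enzymes lie higher in both STOP libraries (31% of all genes). Hk1, Eno2, Pfkfb3, Hif1a, Epas1, Hif3a and Car9 lie lower in both (29.6% of all genes). In TPM the 4 transporters and 9 of the 17 enzymes lie higher in both, beside 18.9% of all genes, with 41.8% of all genes lower.

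Of the transporters, 4 of 4 were higher in both STOP libraries (31% of all genes) and at an unadjusted p under 0.05 (12.4%). None passed edgeR's adjusted test, whereas DESeq2 called Slc2a1, Slc2a3 and Slc16a1 higher. The values of Slc2a1, Slc16a1 and Slc16a3 are given after they were seen. Slc2a3, which encodes the glucose transporter GLUT3, stood at 4540 and 4554 CPM in STOP and at 2675 and 3470 CPM in GO. The groups did not overlap and the log2 fold change was 0.57 (SE 0.18, n = 2 and 2, edgeR adjusted p = 0.105). Slc2a1, which encodes GLUT1, stood at 2917 and 2842 CPM in STOP and at 1623 and 2066 CPM in GO, a log2 fold change of 0.64 (SE 0.18, edgeR adjusted p = 0.0703). The transporters of lactate and pyruvate, Slc16a1 (MCT1) and Slc16a3 (MCT4), differed by less, with log2 fold changes of 0.38 and 0.34. In TPM, which allow genes to be compared, Slc2a3 averaged 1398 and Slc2a1 1334 over the 4 libraries, and Slc2a3 was the higher of the pair in 4 of 4.

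Among the glycolytic enzymes 15 of 17 had a fitted difference above 0 (50.5% of all genes) and 9 of those had an unadjusted p under 0.05 (12.4%), with 1 passing edgeR's adjusted test (1.92%). Pgk1, the phosphoglycerate kinase of the first ATP-yielding step, rose from 93.4 and 105 CPM in GO to 194 and 165 CPM in STOP. The groups did not overlap, and the rise was 1.81-fold (log2 fold change 0.86, SE 0.14, edgeR adjusted p = 0.0178). With 1 library left out the log2 fold change ranged from 0.76 to 0.96, and the adjusted p was 0.104 without STOP 1 and 0.084 without GO 1. Pkm, pyruvate kinase, had the highest CPM of the enzymes and stood at 3302 and 3187 CPM in STOP and at 2311 and 2675 CPM in GO (log2 fold change 0.38, SE 0.16, edgeR adjusted p = 0.184).

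The hexokinases went in opposite directions. Hk2, the hexokinase that HIF raises, stood at 507 and 399 CPM in STOP and at 291 and 322 CPM in GO (log2 fold change 0.57, SE 0.16, edgeR adjusted p = 0.0817). Hk1, the widely expressed hexokinase, stood at 87.3 and 89.9 CPM in STOP and at 116 and 112 CPM in GO (log2 fold change -0.36, SE 0.13, edgeR adjusted p = 0.128). Neither pair of groups overlapped and neither gene passed edgeR's adjusted test, whereas DESeq2 called Hk2 higher. In TPM, Hk2 exceeded Hk1 by 4.29 and 3.36 times in STOP and by 1.87 and 2.12 times in GO. At the last step, Ldha and Ldhb, which encode the subunits of lactate dehydrogenase, differed in the same direction. Ldha stood at 1619 and 1711 CPM in STOP and at 1125 and 1253 CPM in GO, and Ldhb at 220.0 and 189 CPM against 122 and 147 CPM, with log2 fold changes of 0.49 and 0.61 and edgeR adjusted p of 0.101 and 0.0563. The hexokinase and lactate dehydrogenase genes, and, apart from Pgk1, the genes in the following 2 paragraphs, were picked for description after their values were seen.

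Several enzymes have many near-identical processed copies in the genome, and the deposited HTSeq counts, which leave out reads that align to more than 1 place, hold few of their reads. Against the expected counts that RSEM shares out among copies, the HTSeq counts held 0.0631% of the reads of Eno1, 0.342% of Gapdh, 1.74% of Pgam1, 3.45% of Pgk1 and 28.6% of Bnip3. These 5 were the members under 50%, or 12.5% of the 40, beside 5.94% of 14551 tested genes that RSEM gave reads. The median was 99.9% for the members and 100.3% for all genes. Eno1, enolase, stood at 1.69, 0.978, 0.649 and 0.242 CPM in STOP 1, STOP 2, GO 1 and GO 2 by unique reads, but at 1543, 1325, 1064 and 850.0 TPM by RSEM.

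The RSEM values gave the same direction for these enzymes with other sizes. Eno1 had a log2 fold change of 1.52 (SE 0.66, edgeR adjusted p = 0.187) on unique reads and of 0.73 (SE 0.15, edgeR adjusted p = 0.0429) on rounded expected counts, where it was called higher. Pgk1 was called higher with both, at 0.82 (SE 0.14, edgeR adjusted p = 0.0276) on expected counts, with 4127 and 3889 TPM in STOP and 2491 and 2520 TPM in GO. Gapdh stood at 7286 and 7014 TPM in STOP and at 6044 and 6348 TPM in GO (log2 fold change on expected counts 0.35, SE 0.14, edgeR adjusted p = 0.181). By TPM, Gapdh was the highest member in 4 of 4 libraries, and Aldoa lay under Pkm in 4 of 4. Pgk1 lay above Pkm and Aldoa in both STOP libraries and below both genes in both GO libraries, so the order after Gapdh differed between the groups. On RSEM values the count of members called was again 4 higher (1.42% of all 15523 genes tested on them) and 1 lower (3.19%), with Eno1 in place of Ankrd37. How RSEM divided reads between the genes and their copies was not tested, and all 5 genes remain uncertain. In tumor ECs, where no expected counts were used, Gapdh (26.2 to 224 CPM), Pgk1 (12.8 to 34.3 CPM), Pgam1 (6.40 to 15.7 CPM), Bnip3 (7.53 to 168 CPM) and Eno1 (255 to 519 CPM) are likewise uncertain, and Eno1 was not near 0 there.

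**Figure D3:**
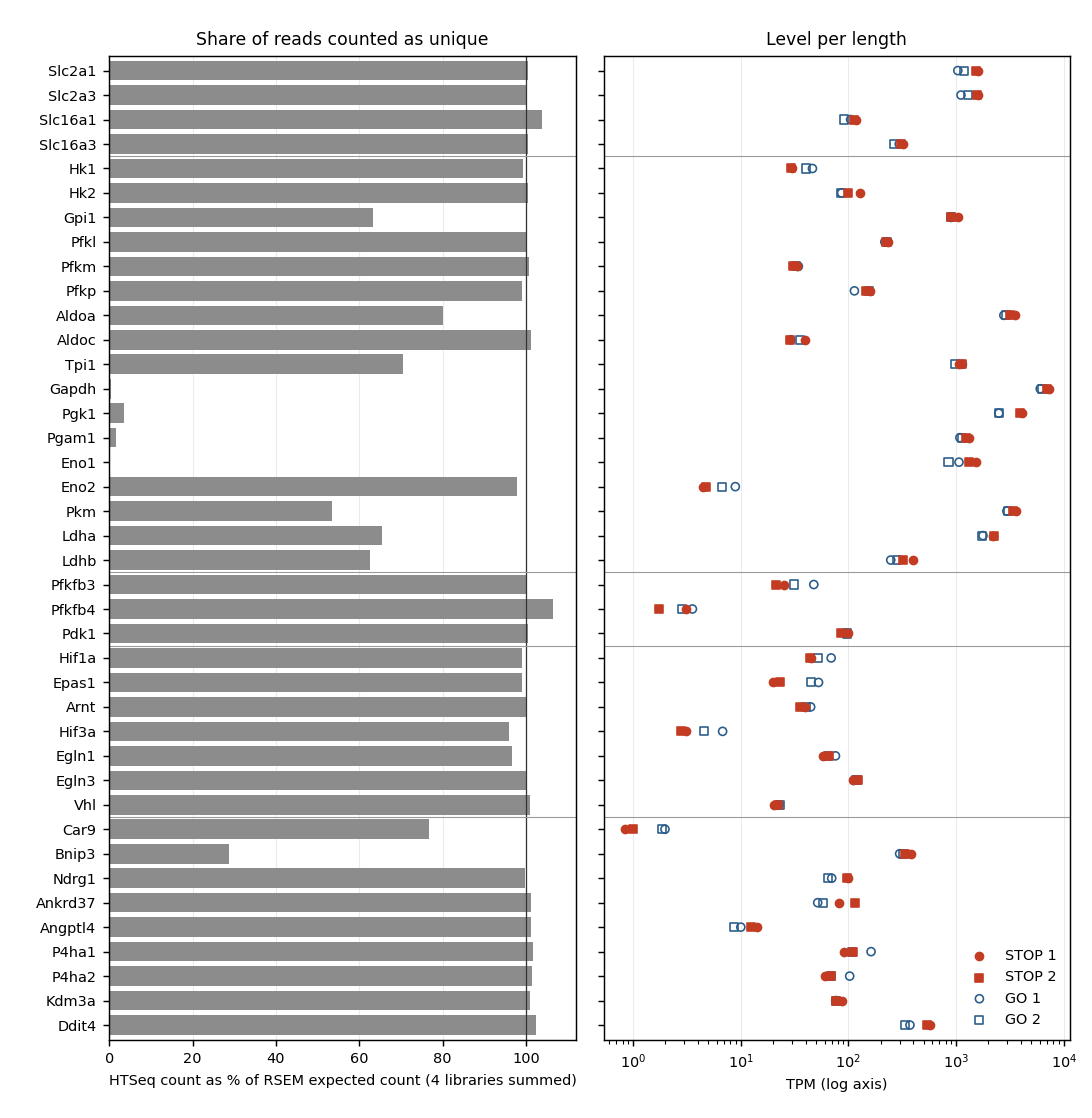
Left, HTSeq counts as a percentage of RSEM expected counts, summed over the 4 sprout EC libraries, for each member; right, TPM in each library on a log axis, with filled red symbols for STOP and open blue symbols for GO. Eno1, Gapdh, Pgam1 and Pgk1 have under 4 of 100 of their RSEM reads in the HTSeq counts although they lie near the top of the TPM scale.

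None of the 3 flux control genes passed the adjusted test of edgeR or DESeq2. Pdk1, which inhibits pyruvate dehydrogenase and is a HIF target, stood at 368 and 325 CPM in STOP and at 306 and 347 CPM in GO, so that the groups overlapped (log2 fold change 0.09, SE 0.15, edgeR adjusted p = 0.743). Pfkfb3, which makes the activator of phosphofructokinase and drives glycolysis in sprouting vessels, stood lower in STOP at 88.4 and 78.2 CPM against 142 and 102 CPM (log2 fold change -0.55, SE 0.18, edgeR adjusted p = 0.109). Pfkfb4, a related enzyme, ranged from 4.64 to 7.99 CPM over the 4 libraries with overlap. Pfkfb3 and Pfkfb4 were described after their values were seen.

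Among the 7 oxygen sensing genes edgeR called 1 lower (4.3% of all genes) and none higher (1.92%). Epas1, which encodes HIF-2α and is abundant in endothelium, stood at 75.0 and 89.7 CPM in STOP and at 171 and 162 CPM in GO. It fell by 1.02 on the log2 scale, 2.02-fold (SE 0.14, edgeR adjusted p = 0.0106), with no overlap, and with 1 library left out the log2 fold change ranged from -1.16 to -0.87, with an adjusted p of 0.0882 without STOP 1. Hif1a, which encodes HIF-1α, stood at 151 CPM in both STOP libraries and at 199 and 168 CPM in GO (log2 fold change -0.28, SE 0.14, edgeR adjusted p = 0.235). Hif3a, whose product can oppose the other subunits, stood at 13.9 and 13.0 CPM in STOP and at 28.3 and 21.1 CPM in GO (log2 fold change -0.88, SE 0.23, edgeR adjusted p = 0.059). The partner Arnt and the genes of HIF α turnover, Egln1, Egln3 and Vhl, overlapped between the groups in CPM, while in TPM Arnt (39.5 and 35.2 in STOP, 44.6 and 40.2 in GO) and Vhl (20.3 and 22.3 in STOP, 22.7 and 22.9 in GO) lay lower in both STOP libraries. Hif1a, Hif3a and the TPM of Arnt and Vhl were described after their values were seen. Egln3, the one with the highest CPM, stood at 210.3 and 237 CPM in STOP and at 183 and 215 CPM in GO (log2 fold change 0.17, SE 0.15, edgeR adjusted p = 0.489). In TPM, Hif1a exceeded Epas1 by 2.27 and 1.90 times in STOP and by 1.31 and 1.16 times in GO. The endothelial markers, whose 12 genes had a median log2 fold change of -1.98, fell in the same libraries as Epas1, and their part in it was not tested.

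Of the 9 other hypoxia targets, 3 were called higher (1.92% of all genes), 6 lay higher in both STOP libraries (31%) and 1 lay lower in both (29.6%). Ddit4, which encodes the mTORC1 inhibitor REDD1, rose from 383 and 385 CPM in GO to 699 and 671 CPM in STOP (1.78-fold, log2 fold change 0.83, SE 0.14, edgeR adjusted p = 0.0177). Ndrg1, a stress-induced gene, rose from 122 and 126 CPM to 203 and 205 CPM (1.65-fold, log2 fold change 0.72, SE 0.13, edgeR adjusted p = 0.0203). Ankrd37, a HIF-1 target of ankyrin repeats, rose from 27.8 and 34.8 CPM to 50.9 and 73.3 CPM (1.98-fold, log2 fold change 0.99, SE 0.21, edgeR adjusted p = 0.0398). In these 3 genes the STOP libraries lay above the GO libraries without overlap, and the GO libraries of Ddit4 and Ndrg1 were within 4 CPM of each other. With a library left out, and the spread then resting on the other pair, the log2 fold changes ranged from 0.82 to 0.85 for Ddit4, from 0.70 to 0.75 for Ndrg1 and from 0.69 to 1.25 for Ankrd37, and each call was lost in some of these fits. The adjusted p of Ddit4 was 0.107 without STOP 1 and 0.0531 without GO 1, that of Ndrg1 was 0.103 without STOP 1, 0.0567 without STOP 2 and 0.0835 without GO 1, and that of Ankrd37 was 0.115 without STOP 2 and 0.212 without GO 1. The prolyl hydroxylases of collagen P4ha1 and P4ha2 and the carbonic anhydrase Car9, described after their values were seen, had fitted differences below 0 (-0.23, -0.23 and -0.79), and Car9 lay between 0.813 and 1.89 CPM. P4ha1 was highest in GO 1 (406 CPM) and STOP 2 (334 CPM), against 268 CPM in STOP 1 and 301 CPM in GO 2, the same libraries in which the fibroblast and mural list was high, whose part was not tested.

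**Figure D4:**
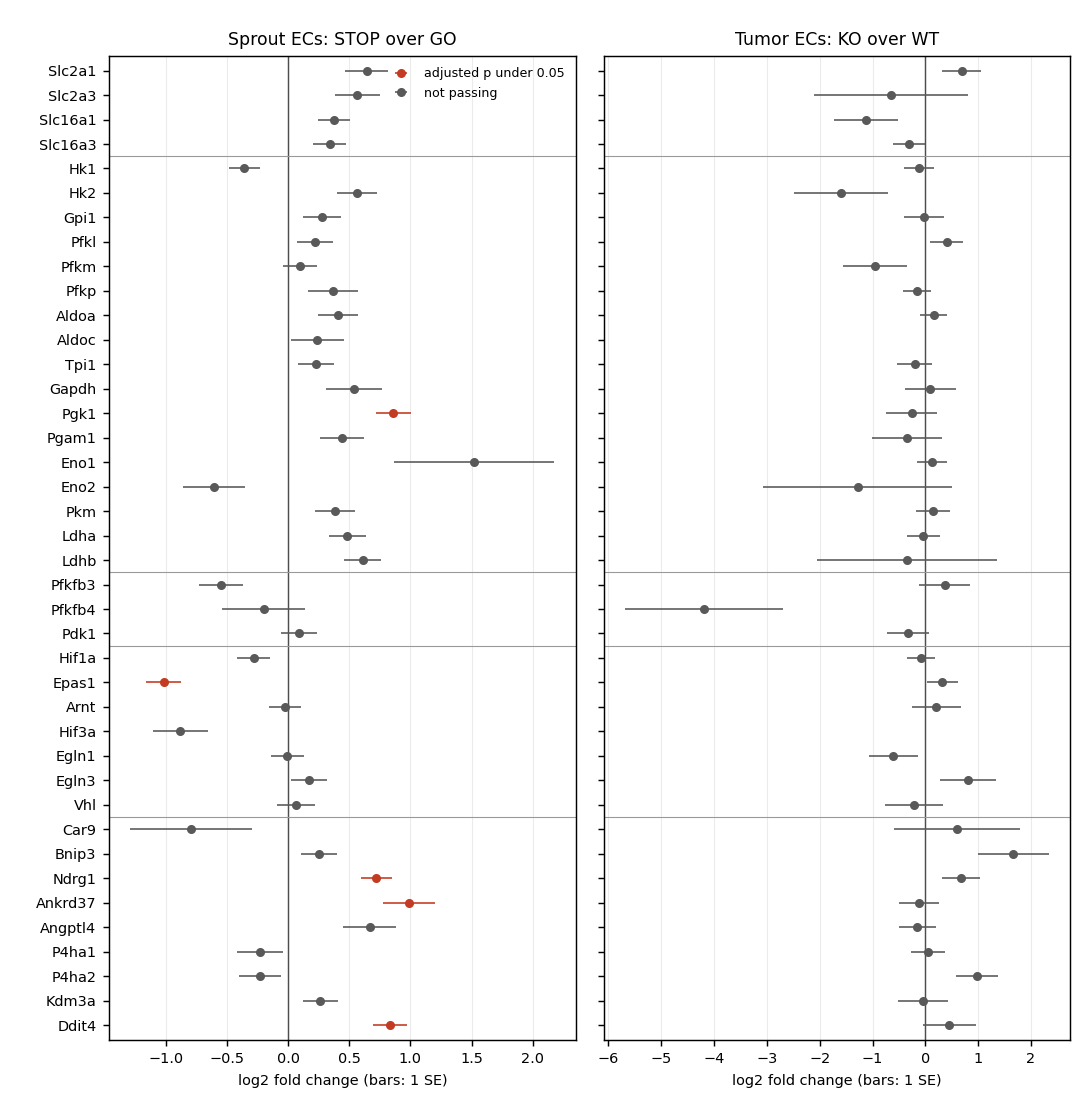
Log2 fold changes with 1 SE for each member by edgeR, STOP over GO in sprout ECs (left) and KO over WT in tumor ECs (right, on a wider axis); red marks an adjusted p under 0.05. In sprout ECs 28 of 40 members lie above 0 with Epas1 lowest at -1.02, and in tumor ECs 16 of 38 lie above 0 with no member passing.

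The promoter windows of 3 of the 4 members called higher in STOP and of Slc2a1 are shown because HIF binds the letters ACGTG or GCGTG. They run from 250 bases before to 50 bases after the RefSeq start (GRCm38.p6), in the direction of transcription, and capitals mark ACGTG and GCGTG on either strand. The windows are chr10:59951721-59952020 (minus strand) for Ddit4, chrX:106186850-106187149 (plus strand) for Pgk1, chr8:45999801-46000100 (minus strand) for Ankrd37 and chr4:119108495-119108794 (plus strand) for Slc2a1.
Ddit4: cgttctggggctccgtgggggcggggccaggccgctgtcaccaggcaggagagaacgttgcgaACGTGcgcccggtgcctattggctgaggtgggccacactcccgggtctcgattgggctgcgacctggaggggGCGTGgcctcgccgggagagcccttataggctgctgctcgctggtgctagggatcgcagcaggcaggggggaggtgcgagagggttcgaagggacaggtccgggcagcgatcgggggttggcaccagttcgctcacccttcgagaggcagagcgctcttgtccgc
Pgk1: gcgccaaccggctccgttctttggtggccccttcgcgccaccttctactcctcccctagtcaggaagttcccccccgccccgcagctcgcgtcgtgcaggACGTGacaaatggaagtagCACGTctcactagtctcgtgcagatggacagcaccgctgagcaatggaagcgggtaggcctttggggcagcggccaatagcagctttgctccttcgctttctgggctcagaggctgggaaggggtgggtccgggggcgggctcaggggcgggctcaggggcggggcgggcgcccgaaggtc
Ankrd37: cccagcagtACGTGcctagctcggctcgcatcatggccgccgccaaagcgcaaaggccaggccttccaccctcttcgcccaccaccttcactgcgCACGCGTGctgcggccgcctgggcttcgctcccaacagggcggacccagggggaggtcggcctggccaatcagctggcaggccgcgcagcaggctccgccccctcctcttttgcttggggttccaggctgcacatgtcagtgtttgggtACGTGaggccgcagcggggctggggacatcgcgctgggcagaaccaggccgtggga
Slc2a1: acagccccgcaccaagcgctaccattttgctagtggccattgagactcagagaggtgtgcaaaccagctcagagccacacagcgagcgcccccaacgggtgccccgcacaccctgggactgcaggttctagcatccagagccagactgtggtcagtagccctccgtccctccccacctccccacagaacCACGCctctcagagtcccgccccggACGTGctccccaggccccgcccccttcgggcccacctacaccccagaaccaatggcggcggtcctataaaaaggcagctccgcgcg
Pgk1 held ACGTG at 2 places and GCGTG at none, Ankrd37 each of them at 2 places, and Ddit4 and Slc2a1 each of them once. No window was available for Ndrg1, Epas1, Angptl4 and Slc2a3. The other 36 of the 40 members had 51 windows. ACGTG was present in 51% of these and in 19.6% of all 32851 windows, GCGTG in 56.9% and 32.4%, and either in 78.4% and 43.8%. The palindrome CACGTG, which holds ACGTG on both strands, was present in 11.8% and 7.15%. The member windows also had a higher median GC content, 62.7% against 52.7%, whose part in these shares was not tested. A match describes the letters and is not evidence of binding.

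Among 40 other genes of glucose metabolism tested in sprout ECs (of 43 listed), 4 rose in STOP (1.92% of all genes) and none fell (4.3%). Pdk3, a pyruvate dehydrogenase kinase, stood at 131 and 116 CPM in STOP and at 54.9 and 66.9 CPM in GO (log2 fold change 1.02, edgeR adjusted p = 0.0132). Pdha1, a subunit of pyruvate dehydrogenase, stood at 281 and 272 CPM against 168 and 188 CPM (0.64 on the log2 scale). The others were the testis-type lactate dehydrogenase Ldhc, at 4.47 and 3.42 CPM against 1.06 and 0.888 CPM, and G6pdx, the entry enzyme of the pentose phosphate pathway, at 138 and 105 CPM against 75.2 and 76.8 CPM. Of 38 other hypoxia-responsive genes tested, 2 fell (Wsb1 and Vldlr, beside 4.3% of all genes) and 1 rose (Kdm4c, beside 1.92%), shares near those of all genes, and their median log2 fold change was -0.10. Wsb1, a ubiquitin ligase subunit, stood at 146 and 125 CPM in STOP and at 238 and 233 CPM in GO. Vldlr, a lipoprotein receptor, stood at 21.0 and 31.8 CPM against 71.2 and 50.9 CPM, and Kdm4c, a histone demethylase, at 183 and 153 CPM against 92.2 and 111 CPM. The median of the 40 other glucose genes was 0.12.

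In tumor ECs no member differed between KO and WT by edgeR at an adjusted p under 0.05, in either direction, where 0.00765% of the 13073 genes tested were called lower (Apln alone) and 0% higher. DESeq2 called no member either, with 0.395% lower and 0.0632% higher of the 12665 genes it gave an adjusted p, nor did limma voom, with 0.00765% lower and 0% higher. At an unadjusted p under 0.05, 1 member was lower (2.94% of all genes) and 2 higher (1.87%). In no member did the 3 KO libraries lie wholly under (1.27% of all genes) or over (1.06%) the 6 WT libraries. The fitted difference was above 0 for 16 of 38 members, beside 48.1% of all genes, and the median was -0.06. Other marker lists also differed between these libraries. The 6 T and NK cell genes present summed to between 22.9 and 103 CPM in KO and to at most 2.92 CPM in WT. Cd2 lay apart (up to 37.5 CPM in KO and at most 1.28 CPM in WT), and Klrb1c and Gzma were at 0 in every KO library. In KO 1 and KO 2 the sum was almost all Cd2 (21.8 and 37.5 CPM). Cd3g and Nkg7 reached 32.2 and 48.0 CPM in KO 3 but at most 0.850 CPM in KO 1 and KO 2. Cd3e overlapped between KO and WT. Cd2 was the only one of the 6 that passed the filter and it was not called (edgeR adjusted p = 0.197). Of the other lists, S100a8, S100a9, Pdgfrb and Col3a1 lay lower in all KO libraries, none called, and the fibroblast and mural list reached 4638 CPM in WT 2. All 7 fibroblast and mural markers tested had a fitted difference below 0 (median log2 fold change -2.52). All 12 endothelial markers had one above 0 (median 0.33), none called. The sort excluded CD45+ cells, and the paper gated immune cells as CD45+. The part of these lists in the members' values was not tested.

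The members with the lowest p were Pfkfb4, P4ha2, Bnip3, Ndrg1 and Slc2a1. Pfkfb4 stood at 0, 0.422 and 0.609 CPM in KO and at a lowest of 0.347, a median of 6.12 and a highest of 12.1 CPM in WT. WT 5 overlapped with KO and the other WT libraries lay at 3.82 CPM or above (log2 fold change -4.19, SE 1.5, edgeR adjusted p = 0.957). DESeq2 gave -4.25 with an adjusted p of 0.067, and the adjusted p over the other settings tried ranged from 0.577 to 1.00. The KO values are at or near the 3-count floor, so the fitted size depends on few reads.

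The other 4 differences rested on 1 library, KO 1. Bnip3, a mitochondrial gene of hypoxia-induced mitophagy, stood at 168 CPM in KO 1 and at 7.53 and 27.7 CPM in the other KO libraries, with a lowest of 9.03, a median of 20.4 and a highest of 36.1 CPM in WT. P4ha2 stood at 254, 74.2 and 88.1 CPM in KO and between 54.8 and 112 CPM in WT (median 63.7). Ndrg1 stood at 899, 269.5 and 345 CPM in KO and between 197 and 394 CPM in WT (median 345). In each of these, KO 1 was the highest of the 9 libraries and the other KO libraries lay within or below the WT range.

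Slc2a1 showed the same order, at 625, 230 and 307 CPM in KO and between 91.7 and 302 CPM in WT (median 265), with KO 3 just above the highest WT library. Egln3, a HIF target that also turns HIF α over, stood at 168, 26.7 and 30.2 CPM in KO and between 20.9 and 60.5 CPM in WT, and was added to these after its values were seen. The log2 fold changes were 1.67 for Bnip3 (SE 0.67), 0.98 for P4ha2 (SE 0.39), 0.68 for Ndrg1 (SE 0.36), 0.69 for Slc2a1 (SE 0.37) and 0.81 for Egln3 (SE 0.53), with edgeR adjusted p of 0.981, 0.976, 1.00, 1.00 and 1.00. Without KO 1 they were -0.27, 0.21, -0.04, 0.16 and -0.58 in that order. KO 1 held the highest CPM of the 9 libraries in 11 of the 38 members (Slc2a1, Pfkl, Tpi1, Pgk1, Eno1, Ldha, Egln3, Bnip3, Ndrg1, P4ha2 and Kdm3a), or 28.9%, beside 11.2% of all genes tested. The macrophage markers (9 genes) summed to 1144 CPM in KO 1 and to 708 CPM in WT 4. In the other 7 libraries they summed to between 45.1 and 143 CPM. The sort excluded CD45+ cells, and the part of these markers in the values of KO 1 was not tested. WT 4 stood at 21.2 CPM for Bnip3, 112 CPM for P4ha2 (the highest of WT), 197 CPM for Ndrg1 (the lowest of WT), 283 CPM for Slc2a1 and 42.7 CPM for Egln3.

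**Figure D5:**
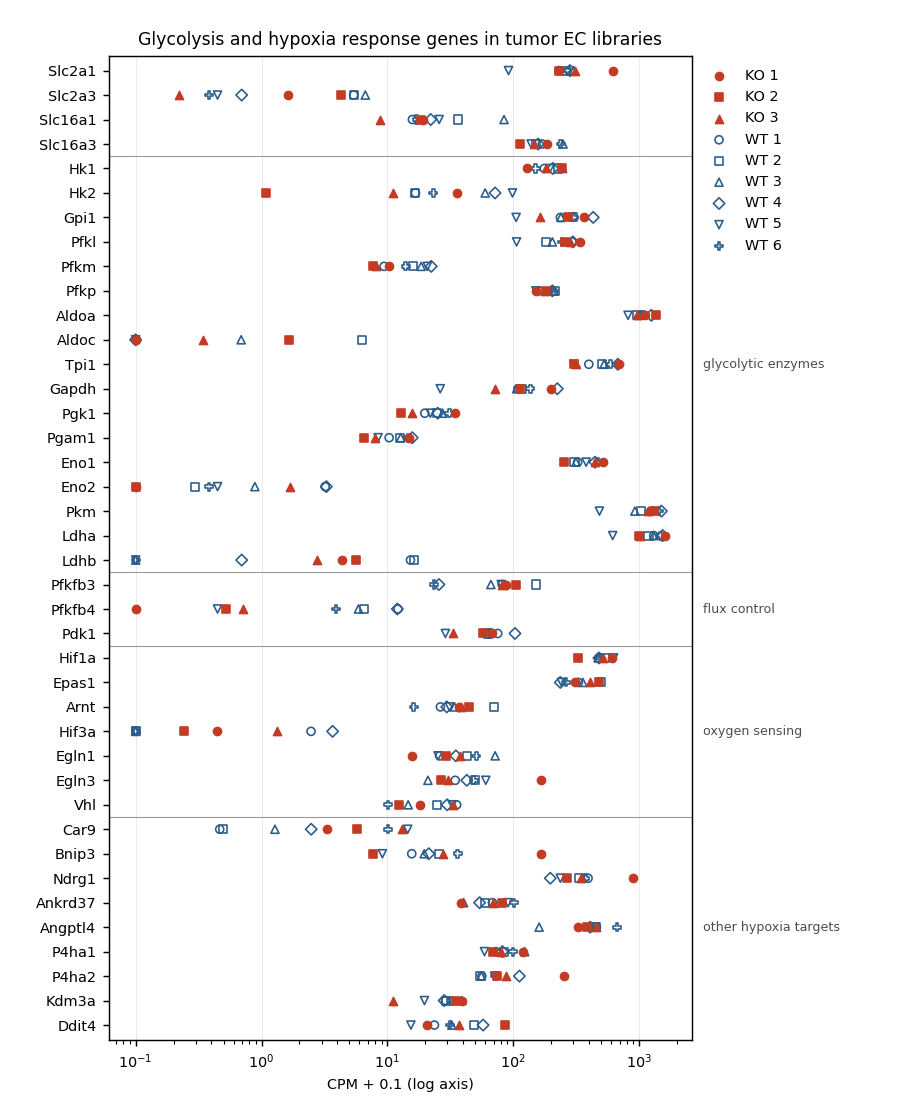
CPM (plus 0.1, log axis) of the 40 members in the 9 tumor EC libraries, grouped by role; filled red symbols are KO and open blue symbols WT. KO 1 (red circle) lies apart to the right for Slc2a1, Egln3, Bnip3, Ndrg1 and P4ha2, and WT 5 lies to the left for Slc2a1, Gapdh, Pkm and Ldha.

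The members with the highest CPM of each role showed how far the KO and WT ranges overlapped. Ldha stood at 1613, 995 and 1017 CPM in KO and at a lowest of 618, a median of 1307 and a highest of 1542 CPM in WT (log2 fold change -0.04, SE 0.31, edgeR adjusted p = 1.00). Hif1a stood at 612, 330.0 and 521 CPM in KO and between 474 and 628 CPM in WT, with a median of 486 CPM (log2 fold change -0.08, SE 0.26). Angptl4, a secreted inhibitor of lipoprotein lipase induced by hypoxia and by PPARs, stood at 330, 384 and 459 CPM in KO and between 161 and 670 CPM in WT, with a median of 454 CPM (log2 fold change -0.15, SE 0.35). In Ldha and Hif1a the lowest and the highest of the 9 libraries were split between KO and WT, and in Angptl4 both were WT. The next values, of Pfkfb3 by the same rule and of Epas1 chosen after it was seen, also overlapped. Pfkfb3 stood at 87.9, 106 and 82.1 CPM in KO and between 23.3 and 151 CPM in WT (log2 fold change 0.36, SE 0.48). Epas1, the gene that fell in sprout ECs, stood at 313, 479 and 410 CPM in KO and between 237 and 498 CPM in WT, with overlap (log2 fold change 0.32, SE 0.29). WT 5 was the lowest of the 9 libraries for 12 of the 38 members, 8 of them enzymes, beside 18.4% of all genes.

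Ratios within a library remove the library's depth where both genes are well counted. They were compared for 6 pairs of related genes by an exact permutation test (two-sided, log2 of the ratio of counts plus 1). With 3 libraries against 6 the exact test cannot go below p = 0.0238, and a single ratio at that value would have an adjusted p of 0.143, so no ratio could pass alone. The ratio of Hk2 to Hk1 averaged -4.58 ± 3.03 (SD, n = 3) on the log2 scale in KO and -2.40 ± 1.08 (SD, n = 6) in WT, with overlap (exact p = 0.19, adjusted over 6 ratios 0.333). Hk2, described after its values were seen, stood at 35.7, 0.985 and 11.0 CPM in KO and between 16.5 and 98.7 CPM in WT. Hif1a to Epas1 averaged 0.26 ± 0.76 (SD, n = 3) in KO and 0.72 ± 0.46 (SD, n = 6) in WT (exact p = 0.286, adjusted 0.333). Pfkp to Pfkl, Ldha to Ldhb, Slc2a1 to Slc2a3 and Slc16a3 to Slc16a1 had exact p between 0.143 and 0.333. Ldhb had 0 counts in WT 3, WT 5 and WT 6, and Slc2a3 had 1 count in KO 3. Where a gene is that near the floor, its ratio still depends on depth and on the count added. Of the other genes of glucose metabolism 35 were tested in tumor ECs and of the other hypoxia-responsive genes 36, and edgeR called none in either direction, with 1 of each list at an unadjusted p under 0.05 (Pgm2 higher and Lox lower).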

How the data were processed

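RNA-Seq was analysed in 9 tumor EC and 4 sprout EC libraries, grouped by the sample labels. For tumor ECs, the authors deposited raw featureCounts counts per gene; the submitters' processing notes list Trim Galore 0.5.0, Bowtie2 2.3.4.1, SAMtools 1.9 and Subread 1.6.2, whereas the paper's methods name STAR. For sprout ECs (STAR 2.5.0a), the authors deposited HTSeq 0.6.1p1 counts of uniquely aligned reads, and RSEM 1.2.25 expected counts, TPM and FPKM, of which the FPKM were not used here. In the HTSeq files 42.6% to 49.6% of entries were alignments that were not unique and 8.90% to 12.0% fell in no gene; these lines were left out.

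Each set was fitted once in edgeR (version 4.0.16, under R version 4.3.3) by its robust quasi-likelihood method after TMM scaling; genes were kept by filterByExpr, whose count minimum is 10, and p-values were adjusted by Benjamini and Hochberg's method over all genes tested. CPM use TMM library sizes. RSEM expected counts were rounded before testing. A call is an adjusted p under 0.05. Alternatives were DESeq2 1.42.0, limma 3.58.1 voom, other scalings and filters, a replicate block and each library left out. The scripts were tested on simulated data. The labels do not say that replicates were separate animals or cultures, so p-values measure the spread between these libraries. The 40 members and the gene lists were chosen with earlier results of these data known. Values are given for each member called, for the 5 members of lowest p where under 5 were called, for the member of highest CPM per role and for up to 4 called genes of each further list; others were added after their values were seen and are named as such.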

Additional observations from a re-analysis of the deposited data

Results flagged for a closer look

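In the 6 WT tumor EC libraries, 5 of the 40 members had 1 library far from the others on the log2(CPM + 1) scale, where the gap to the nearest library, as a share of the whole range, passed Dixon's critical value for 6. Chance flags about 1 in 20 groups, and 7.13% of all genes tested were flagged in the same way, against 4 of the 38 members tested (10.5%). The fifth, Aldoc, did not pass the filter on low counts. WT 5 was far below the others for Slc2a1 (91.7 CPM, 0.774 of the range), Ldha (618 CPM, 0.716) and Gapdh (26.2 CPM, 0.649). WT 2 was far above the others for Aldoc (6.16 CPM, 0.765), and WT 3 was far below for Angptl4 (161 CPM, 0.653).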

How the results depend on the processing

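In sprout ECs the main counts, 4 members higher and 1 lower in STOP, became 11 and 2 with DESeq2 and 8 and 3 with no filter on low counts, where the share of all genes called rose too, from 6.22% to 9.86%. With the study's fold threshold no member was higher (0). Other scalings, the stricter filter and RSEM counts gave 4 and 1. With 1 library left out they ranged from 0 to 8 higher and from 0 to 3 lower. With the replicate block both were 0, with 0.302% of all genes called. Correlations of same-numbered libraries, after taking out the group means, were -0.0709, 0.0574 and -0.14 in tumor ECs and -0.434 in sprout ECs. With 2 sprout libraries per group the deviations mirror each other, so every sprout correlation was -0.434 or 0.434. These values cannot decide whether the replicate numbers pair the sprout libraries. Crossed pairing, added after seeing the data, gave 11 higher and 4 lower, with 24.7% of all genes called. Tumor counts stayed at 0 in every setting run, and no ratio changed sign. No ratio passed, which says nothing about stability, since a single ratio could not pass the exact test alone. Among the tumor log2 fold changes printed, 7 changed sign in some setting. With the replicate block Pfkfb3 was at -0.0335 and Angptl4 at 0.244. With 1 library left out, Bnip3 ranged from -0.27 (without KO 1) to 2.19, Ndrg1 from -0.0352 (without KO 1) to 0.974, Egln3 from -0.581 (without KO 1) to 1.21, Ldha from -0.298 to 0.0812 (without KO 2), Hif1a from -0.274 to 0.135 (without KO 2) and Angptl4 from -0.318 to 0.0137 (without WT 6). In sprout ECs Pdk1 ranged from -0.002 (without GO 1) to 0.184. The cause of these changes was not tested. With 2 sprout libraries per group an exact permutation test of a single value cannot go below p = 0.333.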
